A study of Mus musculus with 2 samples.

Results

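The genes described here are 36 that make, take up, store or export cholesterol, out of 32245 gene symbols counted. They were chosen by name, in 5 groups. There are 19 synthesis enzymes, 4 genes of the SREBP control system, 4 of uptake and transport, 5 of storage and lysosomal release and 4 of efflux. All 36 were found in the count matrices. They were followed in single cells of mouse adrenal glands, in the zones of the cortex and in macrophages, monocytes and dendritic cells.

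All cells came from female C57BL/6J mice of the genotype SF1-Cre+;Znrf3Fx/Fx, in which Cre under the SF1 promoter, active in steroidogenic cells, removes floxed Znrf3. That gene encodes a ubiquitin ligase of the cell membrane that clears Wnt receptors. The 2 ages were 6 weeks, when the glands are enlarged, and 9 weeks, when they have begun to regress, and the study asked what immune cells the gland holds across that switch. Each age is 1 library, made from 2 pooled adrenals at 6 weeks and 3 at 9 weeks, so no difference between ages has a replicate check and no test or p-value is given. Both libraries carry the deletion, and no gland without it was analysed here.

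Cholesterol is the starting material of every steroid hormone, and the adrenal cortex both makes it and takes it up from lipoproteins. SREBP transcription factors, released from the endoplasmic reticulum when sterols are scarce, drive the synthesis enzymes together; INSIG proteins hold them back when sterols are plentiful. Surplus cholesterol is esterified and stored in droplets, and macrophages, which receive it from engulfed cells, send it out through ABC transporters under the control of the oxysterol-sensing LXR receptors.

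Levels are unique molecular identifiers (UMIs, one per captured transcript 3' end) summed over the cells of a class and scaled to 1000000 UMIs of that class (CPM). Since one UMI stands for one molecule whatever the length of the transcript, no length scaling was applied. Brackets hold exact 95% intervals, Poisson for a level and conditional binomial for a ratio, which cover counting error only. A gene was counted in a comparison if it reached 10 CPM in 1 of the 2 samples of cells and 10 UMIs over both, and it is called higher or lower from a 1.5-fold ratio after 5 CPM were added to both levels. The share of all countable genes called in the same comparison is given beside each count as background, except under alternative processing.

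Filtering left 8133 cells of the 6-week library, whose median depth was 11348 UMIs, and 9941 of the 9-week library, whose median depth was 7029, and 29 cell barcodes occurred in both libraries. Cortical cells numbered 4195 at 6 weeks and 1994 at 9 weeks. The glomerulosa-like class (536 and 597 cells) held Dab2 at 1636 and 1738 CPM, and the fasciculata-like class (997 and 517) held Cyp11b1 at 3377 and 3596 CPM, against 154 and 102 CPM in the glomerulosa-like class. An intermediate class (458 and 662) lay between them in Dab2, at 823 and 844 CPM, and in Cyp11b1, at 997 and 763 CPM. Its Cyp11a1, at 3600 and 3747 CPM, was above that of both, and its Star, at 1634 and 1329 CPM, was below. A class led by Cyp2f2 (2145 and 190 cells) carried only that one of the X-zone markers, while a small cluster (59 and 28 cells) carried all 3 and is called X-zone-like. It was led by Hamp, Akr1c18 and Apoc1. Clustered more finely, the fasciculata-like and Cyp2f2-high cells of the 2 ages separated almost completely, so in these classes age and cell state cannot be told apart. Znrf3 itself was at 64.8 and 69.9 CPM in glomerulosa-like, 38.6 and 36.9 in fasciculata-like and 6.52 and 5.93 in macrophage-like cells. A 3' tag outside the deleted exons does not check the deletion.

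Promoters are shown first for 4 synthesis genes that differed between the zones, for a feedback regulator and for a synthesis gene that differed little. The windows run from 250 bases before to 50 bases after the RefSeq start on GRCm38.p6, in the direction of the gene. Capitals mark the CCAAT box (CCAAT, or ATTGG where it lies on the other strand) and the core of the sterol regulatory element (CACNCCAC on either strand, extended to TCACNCCAC where the letter before it fits). Hmgcs1 is at chr13:119690101-119690400 (+), Msmo1 at chr8:64733529-64733828 (-), Idi1 at chr13:8885356-8885655 (+) and Cyp51 at chr5:4104648-4104947 (-), and all 4 were called higher in fasciculata-like than in glomerulosa-like cells at both ages. Insig1, at chr5:28071162-28071461 (+), is the feedback regulator, and Ggps1, at chr13:14063439-14063738 (-), is the synthesis gene that stayed nearly level across the cortex.
Hmgcs1: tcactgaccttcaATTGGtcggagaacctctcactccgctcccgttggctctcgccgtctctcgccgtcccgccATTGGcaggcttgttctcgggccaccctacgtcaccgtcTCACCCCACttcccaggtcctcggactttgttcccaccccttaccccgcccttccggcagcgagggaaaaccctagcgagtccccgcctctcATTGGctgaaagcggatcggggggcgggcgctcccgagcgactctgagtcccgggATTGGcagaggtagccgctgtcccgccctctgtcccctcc
Msmo1: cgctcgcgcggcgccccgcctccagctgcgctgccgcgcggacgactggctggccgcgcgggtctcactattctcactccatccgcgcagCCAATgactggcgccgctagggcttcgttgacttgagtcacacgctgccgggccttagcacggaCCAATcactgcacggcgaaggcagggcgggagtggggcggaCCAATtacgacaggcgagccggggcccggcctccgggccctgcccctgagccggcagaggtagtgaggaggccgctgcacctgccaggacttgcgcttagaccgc
Idi1: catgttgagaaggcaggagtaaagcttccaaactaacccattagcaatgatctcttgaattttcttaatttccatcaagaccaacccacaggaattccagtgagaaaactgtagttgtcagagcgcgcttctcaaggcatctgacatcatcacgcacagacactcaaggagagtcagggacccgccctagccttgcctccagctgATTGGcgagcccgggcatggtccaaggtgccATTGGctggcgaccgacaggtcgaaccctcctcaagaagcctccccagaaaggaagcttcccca
Cyp51: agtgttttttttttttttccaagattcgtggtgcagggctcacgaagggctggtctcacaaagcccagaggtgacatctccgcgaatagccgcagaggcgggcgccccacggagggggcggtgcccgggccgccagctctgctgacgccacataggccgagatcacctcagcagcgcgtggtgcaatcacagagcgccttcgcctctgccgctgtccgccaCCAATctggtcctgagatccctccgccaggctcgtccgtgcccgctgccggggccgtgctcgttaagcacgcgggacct
Insig1: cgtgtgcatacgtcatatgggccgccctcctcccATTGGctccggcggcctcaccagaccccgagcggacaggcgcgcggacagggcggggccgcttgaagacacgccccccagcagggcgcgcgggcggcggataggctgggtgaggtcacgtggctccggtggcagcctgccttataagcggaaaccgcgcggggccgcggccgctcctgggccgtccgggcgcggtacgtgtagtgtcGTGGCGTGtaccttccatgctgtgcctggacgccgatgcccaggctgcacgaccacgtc
Ggps1: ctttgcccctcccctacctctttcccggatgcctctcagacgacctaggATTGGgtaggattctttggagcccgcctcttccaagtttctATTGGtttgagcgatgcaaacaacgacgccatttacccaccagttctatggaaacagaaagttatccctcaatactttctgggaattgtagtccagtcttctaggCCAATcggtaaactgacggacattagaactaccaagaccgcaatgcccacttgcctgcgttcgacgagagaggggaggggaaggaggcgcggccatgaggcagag

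Entries were found for 29 of the 36 members and 16 of the 19 synthesis genes, the other members being Sqle, Fdps, Fdft1, Scarb1, Stard4, Npc1 and Abcg1. A member with several windows, such as Srebf1 or Dhcr7, was counted if any of them held the word. The shares over all promoters are of single windows, so the 2 measures are not quite alike. The full element TCACNCCAC occurred in 1.24% of all 32851 promoter windows and in 2 members, Hmgcs1 at 137 bases upstream and Stard3 at 211. Its core CACNCCAC occurred in 6.24% of windows and in 4 members, the other two being Acat2 and Insig1. The CCAAT box, a shorter word that the background holds in 37.4% of windows, was in 23 of the 29 members and in 15 of the 16 synthesis genes, Acat2 being the exception. The GC box GGGCGG, found in 35.7% of windows, was in 25 of 29 members. Ggps1 has 3 CCAAT boxes and Hmgcs1 has 4, so this word did not separate the gene with level expression from those that varied. Words searched for the LXR receptors (GGTCANNNNAGGTCA) and for NR5A receptors (TCAAGGTCA) were in no window of the 29 members. Matches are letters only, and their absence here says nothing about binding elsewhere.

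The synthesis genes differed in level between the cortical classes. Cells were dissociated, so their position in the gland was not measured, and zone here stands for a class rebuilt from markers. Their summed level at 6 weeks was 480 CPM in intermediate, 556 in glomerulosa-like, 1487 in fasciculata-like, 2061 in Cyp2f2-high and 7579 in X-zone-like cells, and at 9 weeks 461, 458, 1205, 1610 and 5853 CPM. The order of the 3 upper classes was the same at both ages, while glomerulosa-like and intermediate cells exchanged places at 9 weeks by a margin within counting error. Macrophage-like cells, at 336 and 331 CPM, lay below every cortical class.

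**Figure D1:**
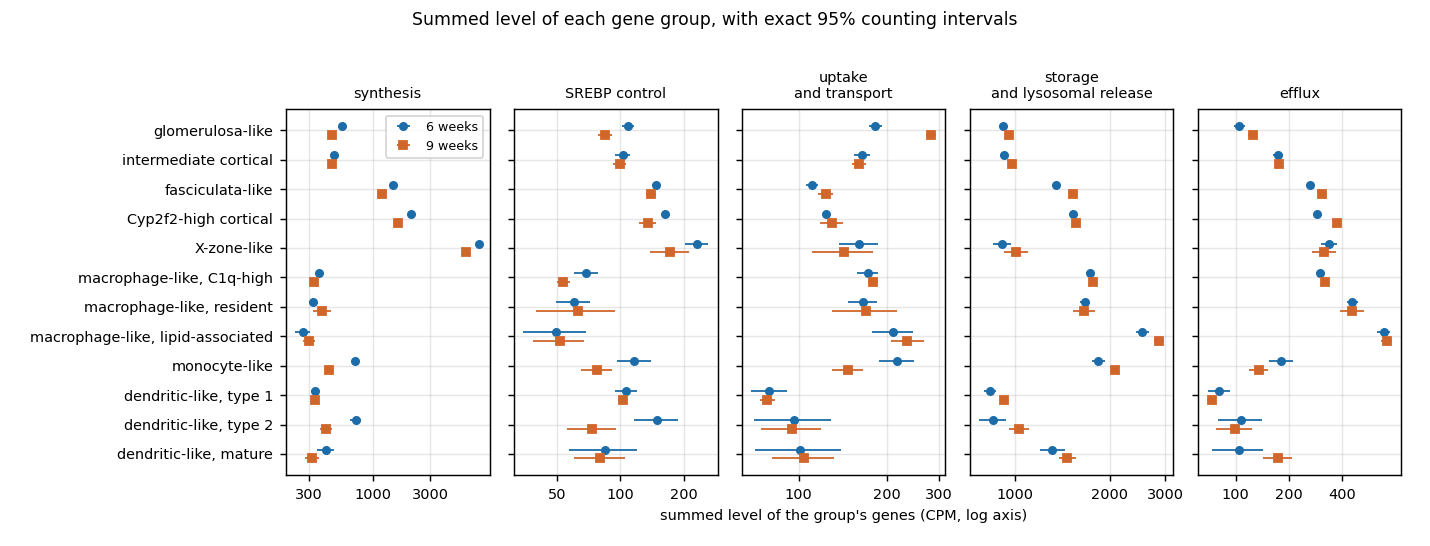
Summed CPM on a log axis (horizontal) of the members of each of the 5 groups, in 12 classes of cells (vertical), with circles for 6 weeks, squares for 9 weeks and exact 95% counting intervals as bars. Synthesis was highest in X-zone-like cells, at 7579 and 5853 CPM, and efflux in lipid-associated macrophages, at 684 and 710 CPM.

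Hmgcs1 (mm10 chr13:119690379-119708260), which makes HMG-CoA at the entry of the pathway, was at 51.8 and 39.3 CPM in glomerulosa-like cells at 6 and 9 weeks, 63.2 and 62.2 in intermediate, 304 and 282 in fasciculata-like, 501 and 435 in Cyp2f2-high and 1292 and 1342 in X-zone-like cells. From intermediate to X-zone-like cells, in the order given, each step between successive classes was larger than the difference between ages in any class. Fasciculata-like over glomerulosa-like cells gave a ratio of 5.86 [5.30, 6.50] at 6 weeks and 7.17 [6.39, 8.07] at 9 weeks. Fdps (chr3:89093588-89101959), which makes farnesyl pyrophosphate, had ratios of 5.56 and 4.66 in the same comparison. Fdft1, squalene synthase and the first enzyme committed to sterols, had 4.16 and 4.05, and Idi1, the isopentenyl isomerase, 3.47 and 3.78. In all, 12 of 18 counted synthesis genes were higher in fasciculata-like than in glomerulosa-like cells at 6 weeks and 10 of 16 at 9 weeks, against backgrounds of 16.5% and 16.2%, and none was lower at either age (backgrounds 17.6% and 16.6%). Against intermediate cells the counts were 14 of 18 and 10 of 16, with backgrounds of 11.7% and 11.5%. Between intermediate and glomerulosa-like cells few synthesis genes were called, and the shares of all genes called were low too. At 6 weeks 1 of 15 counted synthesis genes, Sqle, was lower in intermediate cells (background 3.04%) and none was higher (background 4.83%). At 9 weeks 1 of 13, Hmgcs1, was higher (background 5.08%) and Dhcr7 was lower (background 4.21%).

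Not every enzyme took part. Pmvk, the phosphomevalonate kinase, was at 39.1 CPM in glomerulosa-like and 27.3 in fasciculata-like cells at 6 weeks, a ratio of 0.697. Ggps1, which leads farnesyl pyrophosphate away to the lipid anchors of proteins, lay between 38.0 and 53.0 CPM in all 5 cortical classes at both ages. Ebp, the sterol isomerase, was at 111 and 102 CPM in fasciculata-like cells and as high in C1q-high macrophages, at 144 and 135 CPM. Ebp and Pmvk were the synthesis genes whose 6-week level in macrophage-like cells was nearest to that in fasciculata-like cells, with ratios of 1.12 and 0.913, whereas 15 of 18 counted synthesis genes were lower there, against a background of 39.6%.

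Cyp2f2-high cells stood a little above fasciculata-like cells. At 6 weeks 5 of 18 synthesis genes were higher (background 0.703%). They were Hsd17b7, a reductase of the demethylation steps, at 2.17-fold [1.95, 2.42], Idi1 at 1.71-fold, Hmgcs1 at 1.65-fold, Sc5d at 1.64-fold and Sqle at 1.60-fold. At 9 weeks 3 of 17 were higher (background 1.55%), namely Hsd17b7, Idi1 and Hmgcs1. The border between these 2 classes moved with the clustering. The counts became 10 and 8 with cells of at least 1000 genes, and 14 and 11 with the members kept among the clustered genes. In the latter setting the genes compared also help to define the classes. The shares of all genes called under these settings are not given here, so these counts cannot be set against a background.

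In X-zone-like cells 17 of 19 synthesis genes were higher than in Cyp2f2-high cells at 6 weeks (background 6.85%), and 18 of 19 at 9 weeks (background 8.42%). The X zone is the transient inner zone of the mouse cortex. Fdps reached 2936 CPM [2834, 3042] at 6 weeks and 1564 [1456, 1676] at 9 weeks, which was 9.71-fold and 7.42-fold the Cyp2f2-high level. Idi1 was at 937 and 799 CPM and 4.61-fold and 5.51-fold higher. Pmvk, which did not follow the other zones, was at 138 and 105 CPM and 4.80-fold and 5.11-fold higher. Ggps1 was within 1.5-fold at both ages, with ratios of 0.885 and 1.03, and Mvk, mevalonate kinase, was so at 6 weeks only, at 1.35. Insig1 and Stard4 were also higher in X-zone-like cells, while Soat1 and Lipa were lower, at both ages, where 8.35% and 12.3% of all countable genes were lower. At 9 weeks Scarb1 was lower too, at 51.4 CPM beside 95.4, while the other storage genes called were higher, Lipe at 69.2 CPM beside 41.6 and Npc2 at 302 beside 188. Fdps was itself among the 10 leading genes of that cluster, although no member had entered the clustering. The cells numbered 59 and 28, and their X-zone marker Akr1c18 was at 3469 CPM at 6 weeks and 561 at 9 weeks.

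**Figure D2:**
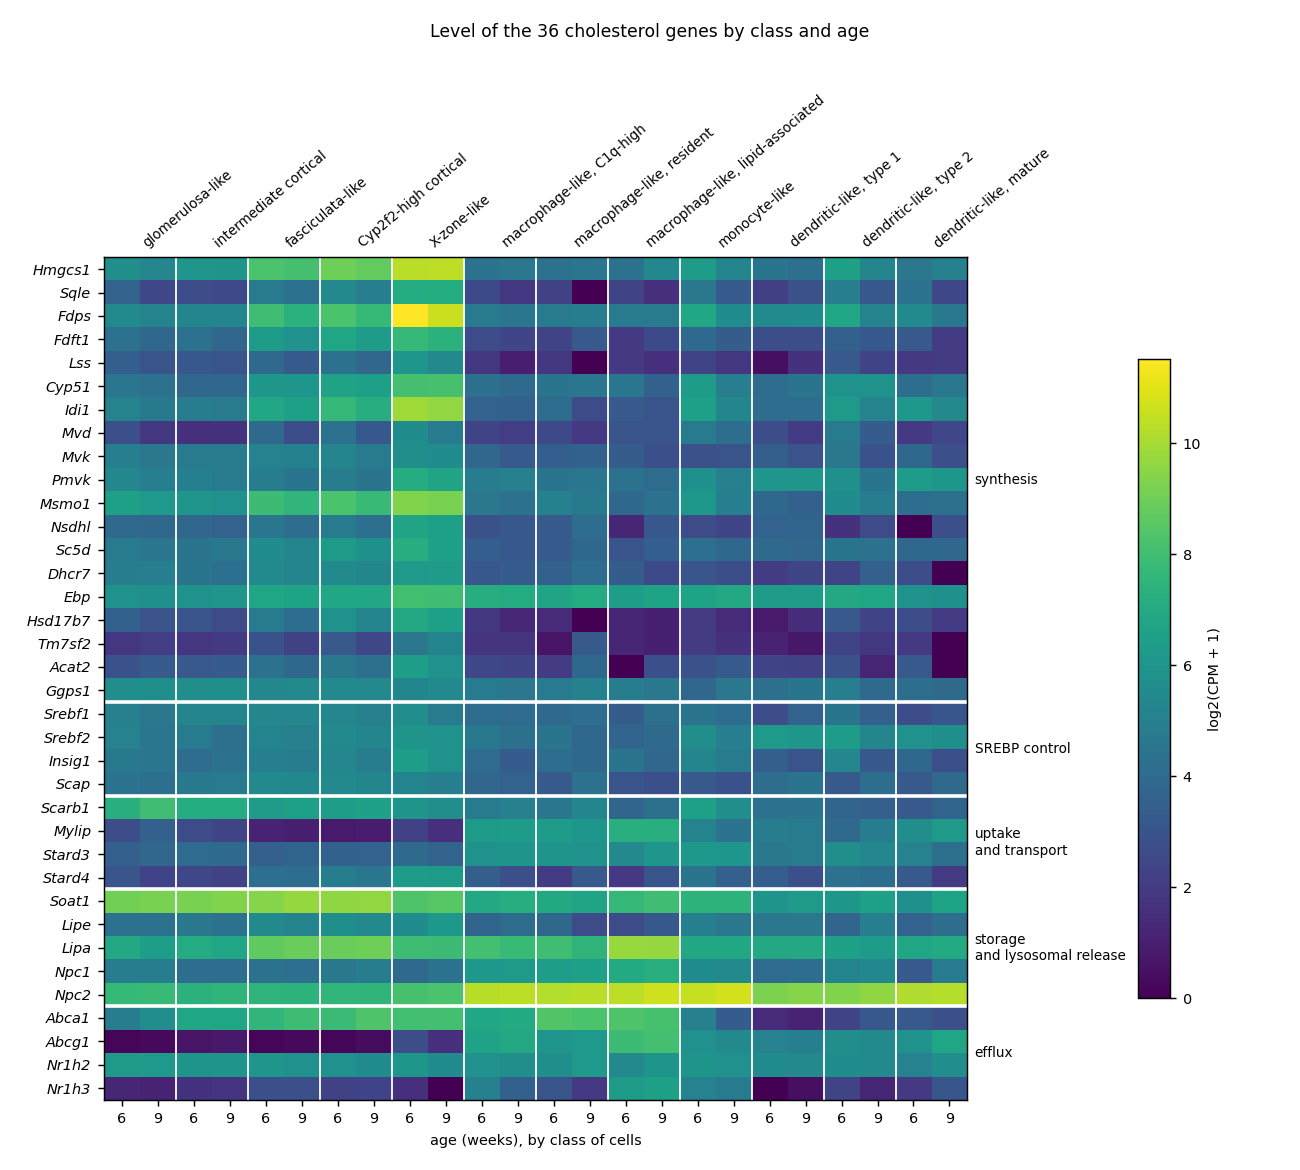
Each row is 1 of the 36 genes and each column a class at 6 or 9 weeks, with colour giving log2 of CPM plus 1. Most synthesis genes brighten from glomerulosa-like to X-zone-like cells, while Mylip, Abcg1 and Npc2 are brighter in macrophage-like than in cortical cells.

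Over the whole cortex most synthesis genes were lower at 9 weeks, and the cells that made up the cortex differed between the ages. Summed over all cortical cells the level was 1696 CPM at 6 weeks and 906 at 9 weeks, a ratio of 0.534 [0.527, 0.542], and 11 of 18 genes were called lower (background 3.97%). Cyp2f2-high cells made up 26.4% of all cells at 6 weeks and 1.91% at 9 weeks. With the cortical classes weighted alike at both ages, 1 of 18 genes was lower, Mvd, the decarboxylase of the mevalonate arm. Of all 8410 countable genes 34 were lower under that weighting. The median log2 ratio was then -0.31 over the counted synthesis genes and 0.05 over all countable genes.

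Within the zones the 9-week level of the sum was 0.824 [0.789, 0.860] of the 6-week level in glomerulosa-like, 0.961 [0.915, 1.01] in intermediate, 0.810 [0.792, 0.829] in fasciculata-like, 0.781 [0.760, 0.802] in Cyp2f2-high and 0.772 [0.740, 0.806] in X-zone-like cells. These are smaller differences than in the pooled cortex, and all but the intermediate one exceeded counting error. Median log2 ratios over the counted synthesis genes were -0.32, -0.33, -0.41 and -0.21 in glomerulosa-like, fasciculata-like, Cyp2f2-high and X-zone-like cells, beside 0.05, 0.07, 0.05 and 0.04 over all countable genes. No synthesis gene was called higher at 9 weeks within a zone or in the pooled cortex. Of all countable genes 7.65% were called higher in the pooled cortex, and within the classes, from glomerulosa-like to X-zone-like, 1.15%, 0.985%, 1.34%, 1.27% and 9.65%.

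Few genes passed 1.5-fold within a zone. Fdps was lower in fasciculata-like cells, at 250.6 CPM at 6 weeks and 163 at 9 weeks, a ratio of 0.651 [0.612, 0.692], and in X-zone-like cells at 0.532 [0.492, 0.576]. In Cyp2f2-high cells its ratio was 0.697 [0.646, 0.751], just short of the rule. Mvd was lower in fasciculata-like cells, from 15.03 to 5.63 CPM, in Cyp2f2-high cells, from 19.6 to 7.97, and in X-zone-like cells, from 47.5 to 25.7, the last within counting error. Hsd17b7 was lower in Cyp2f2-high cells, at 58.1 and 37.0 CPM. The counts were therefore 2 of 18 in fasciculata-like (background 0.929%), 2 of 18 in Cyp2f2-high (background 0.742%) and 3 of 19 in X-zone-like cells (background 7.97%), where Lss was the third. Glomerulosa-like cells had 1 of 15 lower (background 0.434%), Sqle, at 11.6 and 4.39 CPM, and intermediate cells had 0 of 13 (background 0.823%). The intermediate count became 8 when doublets were kept, the fasciculata-like count 0 when the members were kept among the clustered genes, and the Cyp2f2-high count 5 at a clustering resolution of 0.5.

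**Figure D3:**
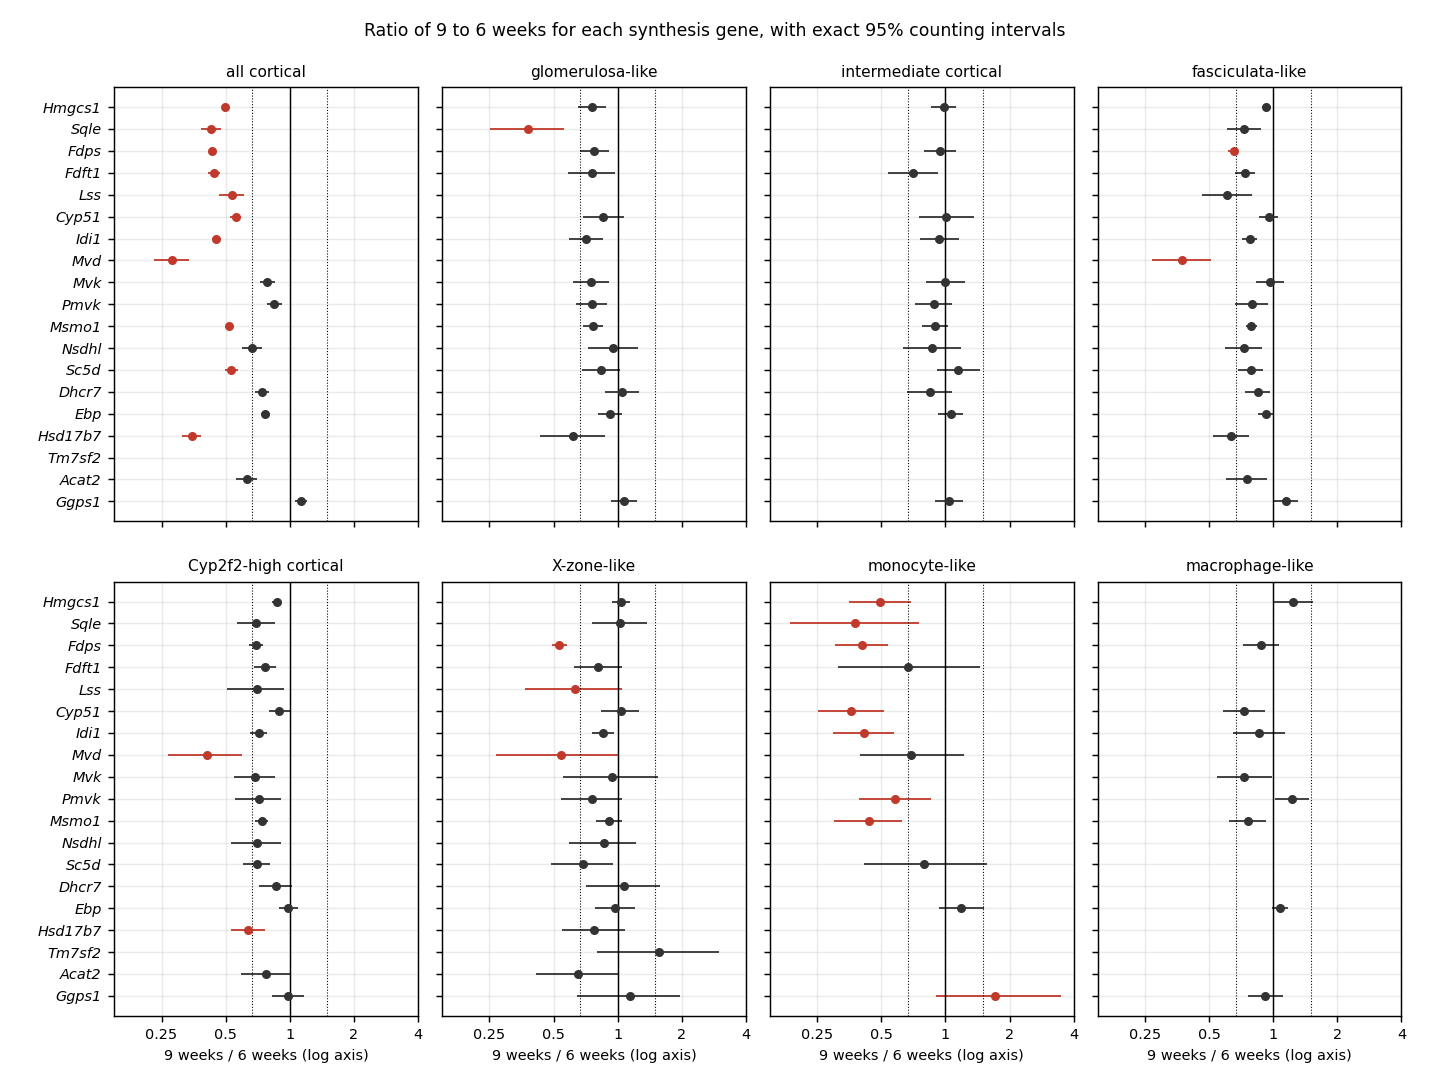
Each point is the 9-week level divided by the 6-week level of 1 synthesis gene on a log axis, with its exact 95% counting interval, in 8 classes. Red marks genes past 1.5-fold after 5 CPM were added to both levels, dotted lines mark 1.5-fold, and genes too low to count are left blank. The pooled cortex has 11 red points and each of its zones has 3 or fewer.

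The levels were not held by a few cells alone. With each cell thinned to 4000 UMIs, the median X-zone-like cell held 29 synthesis UMIs at 6 weeks, with quartiles of 19 and 41, and 17.5 at 9 weeks, with quartiles of 9.75 and 30. The median was 6 and 5 in Cyp2f2-high cells, 4 and 4 in fasciculata-like cells and 2 and 2 in glomerulosa-like cells. Fasciculata-like cells differed between ages in their upper tail, with a 90th percentile of 12 at 6 weeks and 8 at 9 weeks at the same median. Left out of the thinning for want of depth were 12 of 997 and 22 of 517 fasciculata-like cells and 8 of 2145 and 1 of 190 Cyp2f2-high cells. Unthinned means were 22.9 and 20.3 UMIs in fasciculata-like cells. The 5% of cells with the highest synthesis share held 20.01% of the class's synthesis UMIs at 6 weeks and 17.7% at 9 weeks in fasciculata-like cells, and 18.7% and 21.3% in Cyp2f2-high cells. Without them the ratio of the sums was 0.835 and 0.760.

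**Figure D4:**
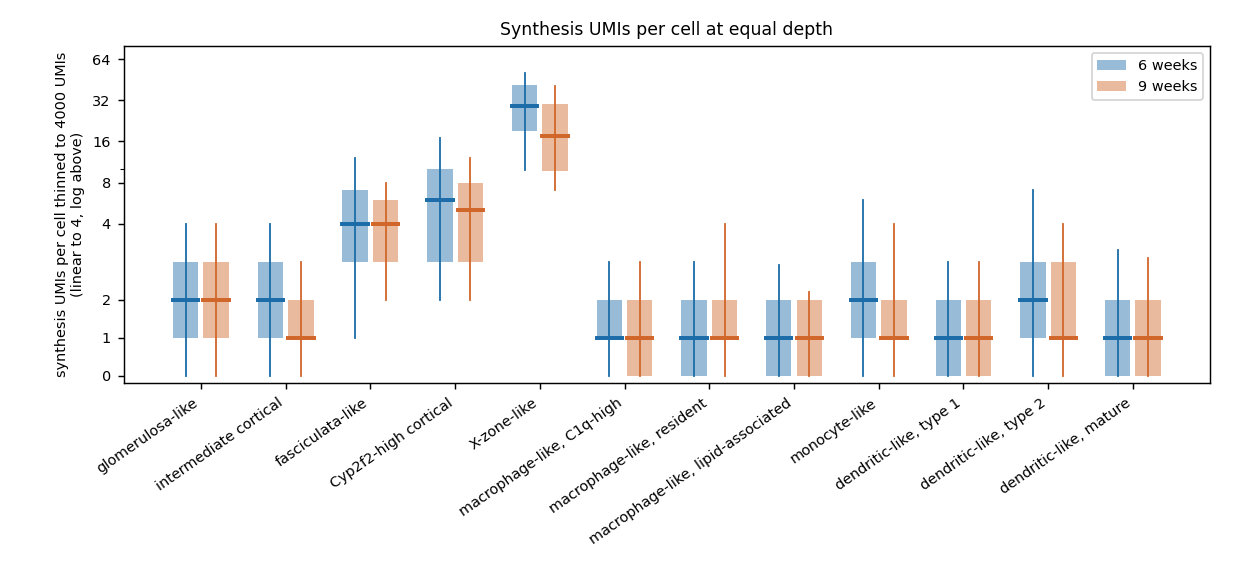
Synthesis UMIs per cell (vertical, linear to 4 and logarithmic above) after each cell was thinned to 4000 UMIs, by class and age. Thick lines are medians over cells, boxes run between quartiles and thin lines between the 10th and 90th percentiles. The X-zone-like medians of 29 and 17.5 lie above the boxes of every other class.

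The SREBP control genes spanned a narrower range than the enzymes, with summed levels at 6 weeks of 103 CPM in intermediate and 231 CPM in X-zone-like cells. Srebf2, the SREBP that drives cholesterol synthesis, lay between 17.8 and 60.8 CPM over the 5 cortical classes and both ages. Srebf1, the SREBP of fatty acid synthesis, was at 49.4 CPM at 6 weeks and 25.7 at 9 weeks in X-zone-like cells, a ratio of 0.520 [0.260, 0.969]. It was the only one of the 4 called at 9 against 6 weeks within a cortical class. In X-zone-like cells 7.97% of all countable genes were called lower. Insig1 was highest in X-zone-like cells, at 85.5 and 57.3 CPM, and was at 30.5 and 28.4 in fasciculata-like cells. Scap, the escort of SREBP, was at 42.8 and 41.1 CPM in fasciculata-like cells, 2.14-fold and 2.37-fold the glomerulosa-like level. In type 1 dendritic-like cells Srebf2 stood at 74.8 and 64.2 CPM, above its level in every cortical class.

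Scarb1 did not follow the enzymes across the zones, being highest in glomerulosa-like and lowest in X-zone-like cells. Scarb1 (chr5:125277087-125341094) encodes the receptor that takes cholesteryl esters from high-density lipoprotein, the main source for mouse adrenal cells. It was at 159 and 255 CPM in glomerulosa-like, 140 and 138 in intermediate, 81.4 and 93.5 in fasciculata-like, 84.8 and 95.4 in Cyp2f2-high and 60.8 and 51.4 in X-zone-like cells. Its level in fasciculata-like cells was 0.512 [0.473, 0.554] of the glomerulosa-like level at 6 weeks and 0.366 [0.337, 0.397] at 9 weeks. The intervals of fasciculata-like and Cyp2f2-high cells overlapped at both ages. Endothelial-like cells held it as well, at 212 and 241 CPM. In glomerulosa-like cells Scarb1 was 1.61-fold [1.497, 1.722] higher at 9 weeks, and Scarb1 and Abca1 were the 2 of 29 counted members called higher there (background 1.15%). Stard4, a carrier of sterols through the cytosol, followed the enzymes instead, at 7.30 and 4.04 CPM in glomerulosa-like, 17.5 and 16.8 in fasciculata-like and 81.7 and 77.1 in X-zone-like cells. Stard3, which moves sterol out of late endosomes, was at 10.4 to 15.2 CPM throughout the cortex, and Mylip, an LXR-induced ligase that removes lipoprotein receptors, was at most 10.6 CPM there.

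Storage and release genes differed by zone. None of the 5 was called at 9 against 6 weeks within a zone, which does not set them apart from the background. From glomerulosa-like to X-zone-like cells 0.434%, 0.823%, 0.929%, 0.742% and 7.97% of all countable genes were lower. The shares that were higher were 1.15%, 0.985%, 1.34%, 1.27% and 9.65%. In the pooled cortex 1 of 5 was lower (background 3.97%). Soat1 (chr1:156424525-156474331), which esterifies cholesterol for storage, was the most abundant member in every cortical class but the X-zone-like one. It was at 531 and 594 CPM in glomerulosa-like, 579 and 647 in intermediate, 685 and 826 in fasciculata-like and 783 and 794 in Cyp2f2-high cells. It was lowest in X-zone-like cells, at 321 and 372. Lipa (chr19:34492318-34527474), the lysosomal acid lipase, was 3.48-fold [3.25, 3.72] higher in fasciculata-like than glomerulosa-like cells at 6 weeks, at 423 and 122 CPM, and 5.38-fold [4.98, 5.83] at 9 weeks, at 472 and 87.7. Lipe, the lipase of the droplet surface, was at 44.7 and 34.7 CPM in fasciculata-like and 18.7 and 19.4 in glomerulosa-like cells. Npc1 and Npc2 hand cholesterol out of the lysosome. Npc1 was at 14.2 to 28.1 CPM and Npc2 at 169 to 302 CPM across the cortex.

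Abca1 (chr4:53030787-53159895) loads cholesterol onto lipid-poor apolipoprotein. It was higher in fasciculata-like, Cyp2f2-high and X-zone-like than in glomerulosa-like and intermediate cells, as most counted enzymes were. It was at 28.3 and 49.0 CPM in glomerulosa-like, 110 and 111 in intermediate, 193 and 245 in fasciculata-like, 228 and 322 in Cyp2f2-high and 263 and 269 in X-zone-like cells. At 6 weeks the ratio of fasciculata-like over glomerulosa-like cells was 6.83 [5.96, 7.85], the largest of the counted members in that comparison. Unlike the enzymes it was not lower at 9 weeks in any zone. It was 1.73-fold [1.47, 2.05] higher in glomerulosa-like cells, which passed the rule, and 1.27-fold [1.20, 1.34] and 1.41-fold [1.326, 1.503] in fasciculata-like and Cyp2f2-high cells, which did not. Abcg1, the second sterol exporter, was at most 5.70 CPM in any cortical class, and Nr1h3, the LXR of macrophages and liver, at most 6.05 CPM. Nr1h2, the widely expressed LXR, was at 45.5 to 74.97 CPM.

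**Figure D5:**
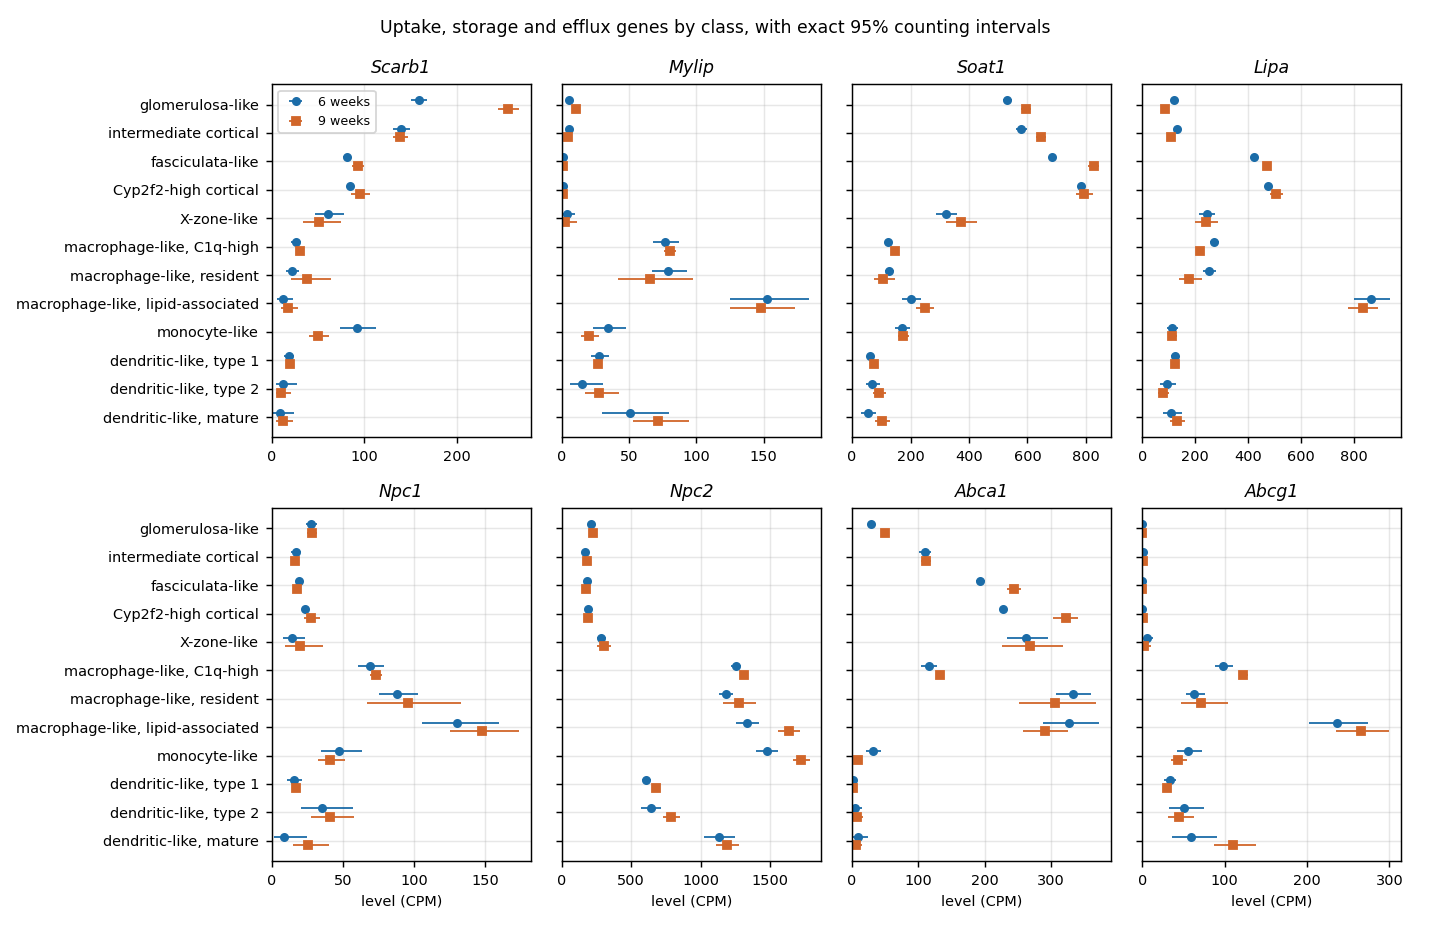
Level of 8 members in CPM (horizontal) in 12 classes, with circles for 6 weeks, squares for 9 weeks and exact 95% counting intervals. Scarb1 is highest in glomerulosa-like cells at 9 weeks (255 CPM), Soat1 in fasciculata-like and Cyp2f2-high cells, and Lipa, Npc1 and Abcg1 in lipid-associated macrophages.

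Lipid-associated macrophages were a cluster of 79 and 94 cells led by Gpnmb, with Spp1 and Fabp5 among its leading genes. They held more Lipa, Npc1, Soat1, Abca1, Abcg1 and Nr1h3 than C1q-high macrophages. Against C1q-high macrophages (485 and 1979 cells) Lipa was 3.19-fold [2.88, 3.53] higher at 6 weeks, at 866 and 272 CPM, and 3.83-fold [3.55, 4.13] at 9 weeks. Npc1 was 1.88-fold and 2.01-fold higher and Soat1 1.65-fold and 1.71-fold, so that 3 of 5 storage genes were called higher at both ages. Lipe was called lower, at 5.49 and 7.93 CPM beside 12.2 and 15.7, with intervals of the ratio that include 1. Abca1 was 2.84-fold [2.41, 3.35] and 2.19-fold [1.93, 2.48] higher, Abcg1 2.40-fold and 2.17-fold, and Nr1h3 2.46-fold and 8.402-fold, or 3 of 4 efflux genes. The backgrounds were 9.98% and 9.35%. Mylip, also an LXR target, was at 152 and 148 CPM beside 76.8 and 80.3. Scarb1 was lower, at 12.4 and 17.9 CPM beside 25.9 and 31.1, in a comparison that called 14.6% and 14.7% of all genes lower. At 6 weeks Srebf2, Scap, Stard4 and Ebp were also called lower, of which Ebp alone had an interval below 1, at 83.7 CPM beside 144. At 9 weeks Pmvk was lower, at 15.9 CPM beside 31.5, and Hmgcs1 was higher, at 40.7 beside 22.8.

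Resident macrophages, marked by Folr2 at 166.6 and 172.2 CPM, had Abca1 at the lipid-associated level but less Abcg1 and Nr1h3 than C1q-high cells. Abca1 was at 334 and 306 CPM, 2.89-fold and 2.31-fold the C1q-high level, while Abcg1 was at 63.3 and 71.1 CPM and Nr1h3 at 6.86 and 2.73. The 9-week value of Nr1h3 rests on 1 UMI, with a ratio to C1q-high cells of 0.246 [0.00620, 1.39]. The backgrounds were 9.90% and 13.5% for higher and 6.14% and 9.44% for lower genes. At 6 weeks Stard4 was lower too, at 3.16 CPM beside 10.1. At 9 weeks Idi1 and Lipe were called lower and Nsdhl, Dhcr7 and Acat2 higher, all 5 with intervals that include 1. Over all macrophage-like cells, of which the resident ones were 353 of 917 at 6 weeks and 62 of 2135 at 9 weeks, Abca1 was at 211 and 146 CPM, while C1q-high cells had 116 and 132. Nr1h3 was lower at 9 weeks in C1q-high cells, at 31.3 and 11.1 CPM, a ratio of 0.355 [0.277, 0.457], and it was the only member called there out of 26 counted (backgrounds 1.40% lower, 1.55% higher). Summed synthesis in macrophage-like cells was 336 CPM at 6 weeks and 331 at 9 weeks, a ratio of 0.984 [0.935, 1.04]. Of the 19 genes 10 were too low to count. None of the other 9 was called, too few to set apart from the backgrounds (2.13% lower, 1.53% higher). In resident cells 1 of 13 was lower and 2 were higher, beside 760 and 974 of 8267 countable genes. In lipid-associated cells 1 of 7 was lower and 1 higher, beside 488 and 746 of 7626. At 6 weeks RNA released from cortical cells could make up 23.8% of Hmgcs1 in macrophage-like cells, estimated from steroid gene UMIs in these cells.

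Monocyte-like cells, 139 and 242 in number, held more of the synthesis transcripts at 6 weeks than at 9 weeks. The sum was 723 CPM at 6 weeks and 441 at 9 weeks, a ratio of 0.610 [0.551, 0.676], and 7 of 12 counted genes were called lower (background 5.17%). Fdps was at 118 CPM [97.1, 141] and 47.7 [38.3, 58.7], Idi1 at 90.9 and 37.5, Cyp51, the lanosterol demethylase, at 81.6 and 29.5, Hmgcs1 at 78.5 and 38.6, Msmo1, the next demethylation enzyme, at 70.2 and 30.6, Pmvk at 53.7 and 31.1 and Sqle, squalene epoxidase, at 22.7 and 8.58. All 7 were at 0.362 to 0.579 of the 6-week level. Ebp went the other way within the rule, at 102 and 121 CPM, and Ggps1 was called higher, at 13.4 and 23.1 CPM (background 4.96%), with an interval of the ratio that includes 1.

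The other groups in monocyte-like cells were lower in part, against the same background of 5.17%. Srebf2 was at 50.6 and 29.0 CPM, 1 of 3 control genes. Scarb1 was at 91.9 and 50.4 CPM, a ratio of 0.549 [0.406, 0.742], Mylip at 34.1 and 19.8 and Stard4 at 20.7 and 10.7, or 3 of 4 uptake genes. Abca1 was at 31.0 CPM from 30 UMIs and 9.12 CPM from 17 UMIs, a ratio of 0.294 [0.152, 0.551], 1 of 4 efflux genes. No storage gene was called, and Npc2, the soluble partner of Npc1, was the highest member at 1477 and 1726 CPM. Against macrophage-like cells 10 of 13 synthesis genes were higher in monocyte-like cells at 6 weeks (background 15.3%) and 1 was lower, Ggps1, at 13.4 CPM beside 25.4 (background 17.7%). The median log2 ratio over the counted synthesis genes was 1.34 at 6 weeks and 0.59 at 9 weeks, beside 0.01 and -0.04 over all countable genes. Idi1 was 7.35-fold [5.33, 10.1] the macrophage-like level at 6 weeks and 3.54-fold [2.65, 4.70] at 9 weeks. C1qa, a macrophage gene, was at 823 and 778 CPM and Ly6c2, a monocyte gene, at 1446 and 2408 CPM in these cells. The part of these markers in the difference was not tested. The 5% of cells with the highest synthesis share held 28.7% and 20.1% of the synthesis UMIs, and without them the sums were 543 and 368 CPM and 6 of 12 genes were lower.

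Dendritic-like cells differed by type. Over all of them 1 of 11 counted synthesis genes was lower at 9 weeks, Hmgcs1, at 31.7 and 18.7 CPM (background 2.48%), and none was higher (background 1.25%). In type 1 cells (184 and 955), marked by Xcr1 at 671 and 825 CPM, the synthesis sum was 334 and 336 CPM and none of 11 genes was called (background 1.04% lower, 1.45% higher). In type 2 cells (62 and 91), marked by Cd209a at 851 and 1362 CPM, it was 729 and 416 CPM, a ratio of 0.571 [0.489, 0.667], with 9 of 14 genes lower (background 8.43%) and Dhcr7 higher (background 13.9%). Fdps was at 109 and 34.2 CPM and Hmgcs1 at 94.3 and 36.9. The 3 of 62 and 5 of 91 cells with the highest synthesis share held 31.3% and 22.2% of the synthesis UMIs. Without them the sums were 533 and 347 CPM, a ratio of 0.651, with Fdps at 66.9 and 29.6 CPM and Hmgcs1 at 46.8 and 25.4. The cells left out held Ly6c2 at 936 and 461 CPM, beside 112 and 66.3 in the remaining type 2 cells. Their C1qa was at 0 and 942 CPM, beside 393 and 646. Insig1 was at 39.8 CPM from 19 UMIs and 7.90 from 6, Srebf2 at 79.6 and 38.2 CPM, and Srebf1 at 21.0 and 10.5, so 3 of 4 control genes were lower. Scap, the fourth, was called higher, at 8.38 CPM from 4 UMIs and 17.1 from 13, with an interval that includes 1. That the difference between ages in type 2 cells exceeds that in type 1 cells was not tested. Abca1 was at or below 8.42 CPM in all 3 dendritic types at both ages, and free RNA could make up 50.1% and 68.7% of its level in dendritic-like cells. Mature cells (30 and 55) held Abcg1 at 59.0 and 110 CPM, a ratio of 1.87 [1.14, 3.20]. Of 22 counted members 3 were called higher and 4 lower there, beside 1029 and 735 of all 6666 countable genes. Synthesis genes made up 3 of the lower ones, out of 10 counted.

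Genes of the same pathways outside the 36 were counted from lists of their own. The shares of all genes called lower, to read these counts against, were 3.97% in the pooled cortex, 0.742% in Cyp2f2-high, 7.97% in X-zone-like and 5.17% in monocyte-like cells. Of 10 fatty acid genes under SREBP, 2 were lower in the pooled cortex at 9 weeks, Acly at 381 and 245 CPM and Scd1 at 26.7 and 12.6, and none within fasciculata-like, Cyp2f2-high or X-zone-like cells. In monocyte-like cells 3 of 4 counted were lower, Fasn at 16.5 and 5.90 CPM, Acss2 at 13.4 and 6.44 and Scd2 at 32.01 and 14.5. Of the other synthesis genes 1 of 6 was lower in Cyp2f2-high cells, Aacs, which makes acetoacetyl-CoA from ketone bodies, and 1 of 6 in X-zone-like cells, Por, the reductase that serves Cyp51 and Sqle, at 98.8 and 61.3 CPM. In the pooled cortex 3 of 11 other uptake genes were lower, Lrp1, Cd36 and Gramd1b. The last, a carrier of sterol from the plasma membrane, was at 592 and 239 CPM. Within classes 0 of 9 were lower in glomerulosa-like (background 0.434%), 0 of 10 in fasciculata-like (0.929%) and 0 of 11 in Cyp2f2-high cells. In intermediate cells 1 of 9 was lower (background 0.823%), and in X-zone-like cells 1 of 12. Among other efflux and LXR genes 3 of 6 were lower in X-zone-like cells. Apoc1, one of the genes that led that cluster, was at 3998 and 1316 CPM, and Rxra and Abca7 had intervals of the ratio that include 1. In monocyte-like cells 1 of 10 was lower, Ch25h, which makes an oxysterol, at 26.8 and 4.83 CPM, and 1 was higher, Smpdl3a, at 340 and 557 CPM (background 4.96% for higher genes).

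Several members were too low to count in parts of the cortex. Tm7sf2 reached the minimum in X-zone-like cells only, at 22.8 and 35.6 CPM. Abcg1 and Nr1h3 did so in no cortical class, and Mylip in glomerulosa-like cells only, at 5.53 and 10.6 CPM. Lss, Mvd and Acat2 were too low in both glomerulosa-like and intermediate cells. In monocyte-like cells 7 synthesis genes and Scap were too low.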

How the data were processed

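Single cells of mouse adrenal glands were captured with the Chromium 3' v3.1 chemistry after dissociation, lysis of red blood cells and a sort for DNA-dye-positive, DAPI-negative cells, per the labels' protocols. The deposited values are UMI counts per gene and barcode, not normalized by the authors. Cell Ranger 6.0.1, Seurat without a version and the build mm10 are named, per the submitters' processing notes. Which annotation release was counted against: not given in the sources used here. There were 8880 barcodes and 97001752 UMIs at 6 weeks and 10812 barcodes and 99728879 UMIs at 9 weeks.

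Rows with the same symbol were summed (32285 rows to 32245 symbols). Barcodes with under 500 genes (161 and 221) or over 25% mitochondrial UMIs (111 and 64) were removed, as were doublets called by Scrublet (475, or 5.52%, and 586, or 5.57%, with 6.89% and 8.42% expected). Both libraries were clustered together without integration in scanpy 1.11.5 with leidenalg 0.10.2 (2000 variable genes without any of the 36 members, 30 components, 20 neighbours, resolution 1). Cortical and myeloid cells were clustered again. Clusters were named from marker lists, at least 3 markers being found in 10% of cells at 2 times the median cluster. The Cyp2f2-high class carries no zone name for want of markers. The intermediate class carries none because it scored on the markers of 2 zones, the second score being at least 0.5 of the first. Scoring thresholds were chosen after the data had been seen, and the class names are rebuilt, which can itself make values differ from those of the study. Mixed (139 and 319 cells) and unnamed (92 and 147) clusters were left out.

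UMIs were summed per class and age, and no test was made since each age has 1 library. All 36 members are named, with genes of other lists where their list is counted. The members and lists were chosen with earlier results of these data known. Coordinates of genes are those of GENCODE M21 (mm10) and promoters from RefSeq on GRCm38.p6. The alternatives were another pseudocount, 2 other minimum levels, trimmed mean scaling, doublets kept and at least 1000 genes per cell. Further ones were members kept in the clustering, resolution 0.5, classes weighted alike, means over cells and free RNA subtracted. Leaving out the 5% of cells with the most synthesis UMIs was added after seeing the data. The counting was tested on simulated data. Calculations used Python 3.11.15, scipy 1.17.1 and numpy 2.4.6.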

Additional observations from a re-analysis of the deposited data

Results flagged for a closer look

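Scarb1 and Abca1 differed between ages in opposite directions in 2 classes. The ratio of 9 over 6 weeks for Scarb1 was 1.61 in glomerulosa-like and 0.549 in monocyte-like cells. For Abca1 it was 1.73 in glomerulosa-like and 0.294 in monocyte-like cells, the last from 30 and 17 UMIs. With 1 library per age the difference between the classes was not tested.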

How the results depend on the processing

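The values below count synthesis genes at least 1.5-fold lower at 9 weeks unless said otherwise, and the cause of each shift was not tested. They are given without the share of all genes called under the same setting. A pseudocount of 1 CPM gave 2 in glomerulosa-like, 4 in fasciculata-like and 4 in dendritic-like cells. No minimum level gave 2 in dendritic-like cells. A minimum of 50 CPM and 50 UMIs, under which fewer genes could be counted, gave 7 in the pooled cortex, 0 in glomerulosa-like, 1 in fasciculata-like, 1 in Cyp2f2-high and 0 in dendritic-like cells, and 7 genes higher in fasciculata-like than glomerulosa-like cells at 6 weeks. Trimmed mean scaling gave 5 in X-zone-like and 3 in dendritic-like cells. It shifted the log2 ratios of the pooled cortex by 0.16, and all other cortical classes by less than 0.1. Keeping doublets gave 8 in intermediate and 1 in Cyp2f2-high cells. Cells with at least 1000 genes gave 1 in fasciculata-like, 1 in Cyp2f2-high and 2 in dendritic-like cells, and 10 and 8 genes higher in Cyp2f2-high than fasciculata-like cells at 6 and 9 weeks. Members kept in the clustering gave 0 in fasciculata-like, 1 in Cyp2f2-high and 3 in dendritic-like cells, and 14 and 11 in that comparison of classes. Resolution 0.5 gave 0 in glomerulosa-like, 5 in Cyp2f2-high and 2 in dendritic-like cells, and no value for fasciculata-like cells, which merged with the intermediate ones. Classes weighted alike gave 1 in the pooled cortex. Means over cells gave 5 in X-zone-like and 4 in dendritic-like cells. Subtracting free RNA gave 1 in Cyp2f2-high and 2 in dendritic-like cells. Leaving out the 5% of cells with the highest synthesis share gave 0 in glomerulosa-like and 0 in dendritic-like cells. The other 132 of 166 counts that answer a comparison stayed within 1.5 times the value reported, among them every one for monocyte-like and macrophage-like cells and for the genes higher in X-zone-like cells.

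No paired analysis was possible because each age has 1 library, and for the same reason no replicate could be left out. Trimmed mean scaling was not applied between classes. Depth limits the small classes, which are X-zone-like cells, lipid-associated macrophages, resident macrophages at 9 weeks and type 2 and mature dendritic-like cells, with 28 to 94 cells an age. Depth also decides which genes could be counted.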
